A study of Homo sapiens with 6 samples.

Results

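Candidate polyadenylated 3′ ends were examined at 5 receptor genes of neuroblastoma, ALK, RET, NTRK2, NTRK3 and NGFR. A peak was taken as a member if its summit lay in the GENCODE gene body or up to 4 kb past the 3′ end of the gene. This gave 248 of 199610 peaks, leaving out those on unplaced sequence. With a −log10 q of at least 5, the cutoff used below, 180 peaks remained, and over the whole list 69.3% of peaks met it.

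Poly(A) 3′-seq had been performed on IMR-32, a human MYCN-amplified neuroblastoma cell line. The 6 libraries formed 3 groups with 2 replicates each, namely DMSO (the solvent), THZ531 at 400 nM and 2 h, and THZ531 at 400 nM and 6 h. THZ531 binds CDK12 and CDK13 covalently and inhibits both kinases, and the labels give no time for the DMSO samples. The peaks had been called once on merged reads, taken here to be these 6 libraries, so no value below compares DMSO with THZ531 or carries a replicate error.

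ALK and RET are receptor tyrosine kinases that carry growth and survival signals in cells of the sympathetic lineage from which neuroblastoma arises. NTRK2 and NTRK3 encode TrkB and TrkC, the receptor kinases for brain-derived neurotrophic factor and neurotrophin 3, and NGFR encodes p75, a neurotrophin receptor with a death domain and no kinase. An mRNA ends where it is cleaved and polyadenylated, usually shortly after a hexamer such as AATAAA. Cleavage inside an intron that lies before the kinase exons gives a message with no complete kinase, and TrkB and TrkC have annotated short isoforms of that kind.

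Markers of the cell type were read first. All 13 adrenergic neuroblastoma genes counted, including MYCN, HAND2, GATA3, TH and DBH, had a peak at an annotated transcript end, and the tallest of these held a median of 66 reads at the summit (19 to 123). Of 8 mesenchymal genes 5 had one, namely SNAI2 (37 reads), TWIST1 (34), VIM (31), FN1 (20) and YAP1 (12), and the first 3 stood above TH (23) and DBH (19). WWTR1 and NOTCH2 had no transcript-end peak and PRRX1 had no peak, and with these at 0 the median over the list was 16 reads. Among 6 markers of other cell types, PTPRC, COL1A2 and ALB had no peak, PECAM1 had 1 intronic peak of 7 reads, and EPCAM and COL1A1 had transcript-end peaks of 7 and 15 reads. EPCAM also had 2 intronic peaks, of up to 25 reads.

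All 5 receptor genes had at least 1 peak at an annotated transcript end, against 64.0% of 20046 protein-coding genes. A transcript-end peak here had its summit between 200 bp before and 600 bp after an annotated end. The height of a peak is given as reads at the summit, the number of 100 bp extended reads over that base. Such a height may count distinct start positions rather than molecules, as set out in the section on processing. Over all detected genes, those with a transcript-end peak, the tallest one held a median of 25 reads (quartiles 17 and 36). The value was 44 reads at NGFR, 32 at RET, 29 at NTRK3, 23 at ALK and 11 at NTRK2. NGFR stood above 86.1% of detected genes and NTRK2 above 7.29%. RET, NTRK3 and ALK lay in the middle of the range, above 67.1%, 59.9% and 42.4% of them. By the deposited fold enrichment the order changed, with 18.44 at RET, 18.18 at NTRK3, 13.24 at NGFR, 11.37 at ALK and 8.276 at NTRK2. At the NGFR and ALK ends a gene is annotated on the opposite strand, so the heights there may include its reads. With 1 pooled list these heights have no replicate error, so the order of neighbours was not tested.

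The transcript ends that carried these peaks differed in kind between the genes. ALK, NTRK3 and NGFR had a peak at the end of their canonical transcript, while RET and NTRK2 had theirs only at the ends of other transcripts. The sequences below are the 30 bases at or near the 3′ edge of the main transcript-end peaks, read on the gene's strand in GRCh38. They are shown because each holds a hexamer, which by itself does not show that it directs cleavage there. Capitals mark the hexamer, which is AATAAA where the window held one and otherwise the hexamer that started closest to 22 bases before the edge. The first is from ALK at chr2:29192776-29192805 (minus strand) and the second from RET at chr10:43127482-43127511 (plus strand). The next pair is from NTRK3 at chr15:88072429-88072458 and chr15:87977365-87977394 (minus strand), and the last is from NGFR at chr17:49514996-49515025 (plus strand).
ALK, end of the canonical transcript: acggaAATAAAggagttatttgtaatgact
RET, end of the short isoform: ctttgATTAAAtactagaaattttttctgt
NTRK3, end before the kinase exons: ctccctctccggAATAAAttgctagttgcc
NTRK3, end of truncated TrkC: ttcttAATAAAcactttattttctaatgaa
NGFR, end of the canonical transcript: aaagaAAGAAAaatagtacaaagagatttt

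**Figure D1:**
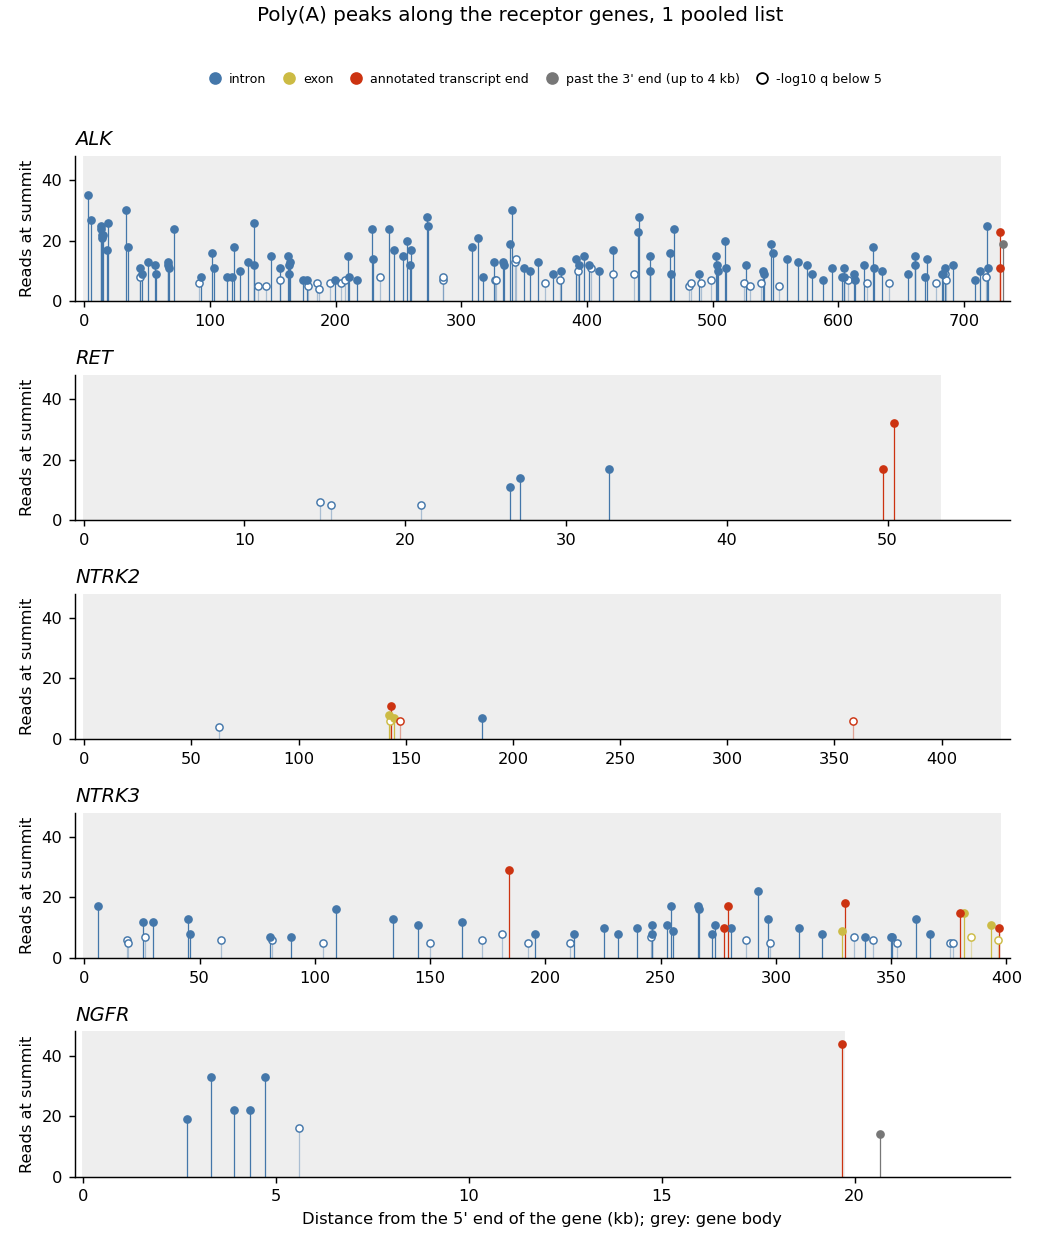
Height of every peak (reads at the summit, y axis) against its distance from the 5′ end of the gene (kb, x axis), 1 panel per receptor gene. Colours give the class, open circles are peaks with −log10 q below 5, and grey is the gene body. ALK carries 117 filled intronic peaks spread over its whole length, NTRK3 35, and NTRK2 1.

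ALK lies at chr2:29192774-29921586 on the minus strand, is 728.8 kb long, and had 120 peaks. Of these, 117 were intronic, 2 were at transcript ends, 1 was past the 3′ end and none was in an exon outside a transcript end. The peak at the canonical end (chr2:29192769-29192881) held 23 reads, with AATAAA starting 31 bases before its 3′ edge. A second peak of 11 reads (chr2:29192994-29193099) lay at the end of the transcript ALK-206. These lay where CLIP4 is annotated on the opposite strand, and because the list has no strand, reads of ALK and of CLIP4 could not be told apart there. The peak past the 3′ end (chr2:29190987-29191096) held 19 reads at 1.73 kb from the gene, also within CLIP4.

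The tallest ALK peak was intronic. It held 35 reads at chr2:29918808-29919041, in intron 1 and 2.62 kb from the start of the gene, and had no annotated gene on the opposite strand. It lay after exons that encode 222 of the 1620 residues of ALK. The local background around it was 274 reads per 10 kb, against a median of 78 over the intronic peaks of ALK. The 30 bases at its edge are shown because AATAAA starts 22 bases before the edge (chr2:29918808-29918837, minus strand), the same hexamer as at the canonical end.
ALK, tallest intronic peak: catcagaAATAAAtgaagttcttatgctcc

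The next tallest held 30 reads each. One lay in intron 1 at chr2:29888265-29888485, 33.3 kb from the start, with AATAAA starting 48 bases before the edge and 18 A in a stretch of 25 downstream. The other lay in intron 3 at chr2:29581293-29581425, 340 kb from the start, with none of the 12 hexamers on the ALK strand. ALK was the only one of the 5 genes whose tallest intronic peak held more reads than its tallest transcript-end peak, a property of 27.7% of 12541 detected genes with an intron. By the deposited fold enrichment the order depended on the peak. The intronic peak of 35 reads had a fold of 9.626, below the 11.37 of the canonical end, while the highest intronic fold of ALK was 14.84, at another peak of intron 1 (chr2:29786178-29786334, 26 reads). The remaining intronic peaks of ALK were lower, with a median of 12 reads (quartiles 10 and 17) over all 117.

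The intronic peaks of ALK were spread along the gene rather than gathered at one place. Cut from its start into 14 full windows of 50 kb, the gene held 5 to 13 intronic peaks per window with a median of 8. In 7 full windows of 100 kb it held 11 to 21. The remaining stretch at the 3′ end of the gene fell in no window and also held intronic peaks. At least 1 peak lay in 16 of 28 introns. Intron 1 (202 kb) held 39 peaks, intron 3 (163 kb) 23, intron 4 (148 kb) 20 and intron 5 (55.2 kb) 9. Over the 28 introns, the number of peaks rose with intron length (Spearman's rho 0.90, a description over introns of 1 gene). Per length, the 4 longest introns held 19.3, 14.1, 13.5 and 16.3 peaks per 100 kb. Intron 1 was thus the most densely filled of them, and it also held the tallest peak.

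The longest intron of ALK without a peak was 6.62 kb long. The exon that encodes the catalytic loop of the kinase is exon 24, around residue 1247, and 113 of the 117 intronic peaks (96.6%) lay before it. The same stretch holds 97.3% of the intronic bases, so the peaks lay before the loop in proportion to intron length. Of the introns past it, intron 26 held the highest peak, with 25 reads.

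**Figure D2:**
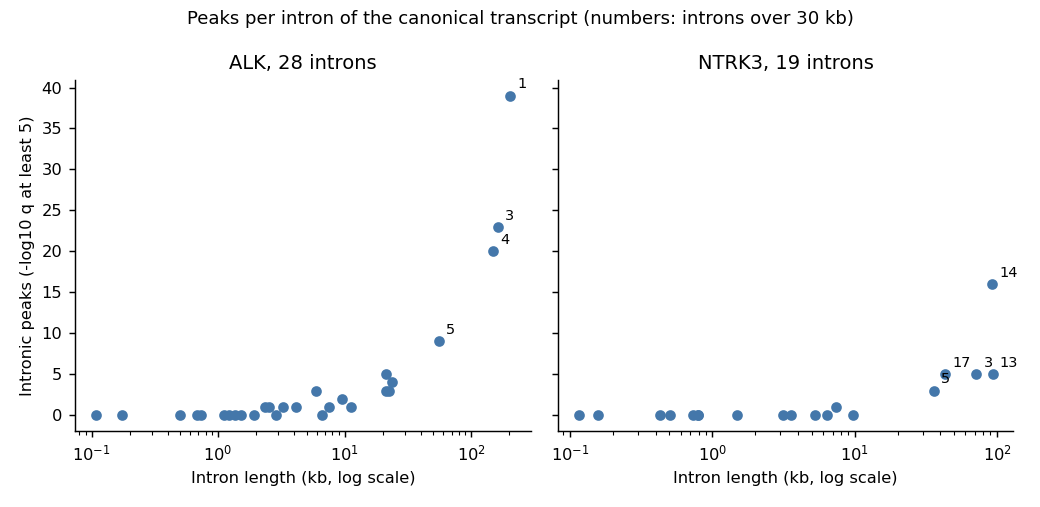
Number of intronic peaks (y axis) against intron length (kb, log x axis) for each intron of the canonical transcript of ALK (28 introns) and NTRK3 (19 introns). Numbers name the introns over 30 kb. ALK intron 1 has 39 peaks in 202 kb, and NTRK3 introns 13 and 14 have 5 and 16 peaks in 93.2 and 92.1 kb.

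RET, at chr10:43077064-43130351 on the plus strand, is 53.29 kb long and had 5 peaks, 3 in introns and 2 at transcript ends. RET is made as a long and a short isoform, RET51 and RET9, which differ in their last residues and have different last exons. The tallest peak held 32 reads at chr10:43127367-43127522, at the end of RET-201, the transcript of the short isoform of 1072 residues. Its ATTAAA started 35 bases before the edge. The other transcript-end peak held 17 reads at chr10:43126722-43126840, at the end of RET-208, and had no hexamer. No peak of any height lay at the end of the canonical RET-202, which encodes the long isoform of 1114 residues and ends at position 43130351, nor within 4 kb past it. The nearest peak beyond lay 4.74 kb past the gene and held 19 reads.

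The 3 intronic peaks of RET held 17, 14 and 11 reads and all lay before exon 15, which encodes the catalytic loop around residue 872. That stretch holds 87.9% of the intronic bases of RET, and 3 peaks are too few to set against this share. The tallest lay in intron 6 at chr10:43109703-43109817. The other 2 lay in intron 3, at chr10:43104102-43104284 and chr10:43103544-43103754. All 3 had a hexamer, and none had an A-rich stretch downstream. Their sequences are shown because each carries a different hexamer close to the edge (chr10:43109780-43109809, chr10:43104252-43104281 and chr10:43103725-43103754, plus strand).
RET, intron 6: aaagtAATAAAtattcattaaagaagatga
RET, intron 3, 14 reads: tctaaAATGAAcacatattgcttccataat
RET, intron 3, 11 reads: ctgccctttttcACTAAAaattatgtgatt

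Intron 1 of RET, the longest at 23.1 kb, held no peak that met the cutoff. The 3 peaks of RET below the cutoff all lay in it and held 5 or 6 reads.

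NTRK2, the gene of TrkB, lies at chr9:84668375-85095751 on the plus strand. It is 427.4 kb long and had 4 peaks, the fewest of the 5 genes. One was at a transcript end, 2 were in exons and 1 was intronic. The highest held 11 reads at chr9:84811198-84811314, at the end of NTRK2-253 and NTRK2-240 inside intron 12 of the canonical transcript, with 20 A of 25 bases downstream. Upstream exons encode 465 of 838 residues there, and the catalytic loop is encoded by exon 17, around residue 690. The exon peaks held 8 reads (chr9:84810482-84810601) and 7 reads (chr9:84812661-84812760) and lay within a few kb of this end. The intronic peak held 7 reads at chr9:84853976-84854090, also in intron 12, with 22 A of 25 bases downstream. All 4 NTRK2 peaks above the cutoff thus lay before the catalytic loop, a stretch that holds 67.1% of the intronic bases of the gene. The transcript-end peak, the intronic peak and the exon peak of 7 reads (19 A of 25 bases) stood next to A-rich sequence.

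NTRK2 had 2 further transcript-end peaks, below the cutoff, and they are the ends of its well-known isoforms. One lay at the canonical end shared by full-length TrkB transcripts (chr9:85026958-85027059, 6 reads, −log10 q 4.763). The other lay at the end of the truncated transcripts that include the 477-residue form (chr9:84815604-84815704, 6 reads, −log10 q 4.544). Both had AATAAA close to the edge, and their sequences are shown for that reason (chr9:85027029-85027058 and chr9:84815675-84815704, plus strand). The heights of these ends were equal.
NTRK2, end of full-length TrkB: cttacAATAAAtaacatactccaaaagaga
NTRK2, end of truncated TrkB: taacaagccAATAAAgtttgataattcatc

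NTRK3, the gene of TrkC, lies at chr15:87859751-88256791 on the minus strand, is 397.0 kb long and had 44 peaks. Of these, 35 were intronic, 6 were at transcript ends and 3 were in exons. Its 6 transcript-end peaks were the most of the 5 genes, and 3 of them lay before exon 17, which encodes the catalytic loop around residue 677. The tallest held 29 reads at chr15:88072429-88072699, at the end of NTRK3-215, NTRK3-213 and NTRK3-206 inside intron 13. Of these only NTRK3-213 has an annotated coding sequence, an incomplete one of 85 residues, so the protein length at this end is not given by the annotation. A peak of 17 reads (chr15:87977361-87977470) lay at the end of NTRK3-201 and related transcripts inside intron 14. These encode 506 to 612 residues, including the truncated TrkC without a kinase. A peak of 10 reads (chr15:87979056-87979158) lay close by, at the end of NTRK3-207.

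The other 3 transcript-end peaks of NTRK3 lay past the catalytic loop. One of 18 reads (chr15:87926657-87926793) was at the end of NTRK3-209, which encodes 705 residues. One of 15 reads (chr15:87876783-87876892), next to 21 A of 25 bases, was at the end of NTRK3-202 and related transcripts of 817 to 864 residues. The peak at the canonical end held 10 reads (chr15:87859751-87859853), the joint lowest of the 6. The ends before the catalytic loop exon thus held 29, 17 and 10 reads and the ends past it 18, 15 and 10, which overlap. Of the latter, the NTRK3-209 end still lay before the last coding exons, after exons that encode 711 of 839 residues. The exon peaks held 15, 11 and 9 reads. The edges of the NTRK3-209 end, the NTRK3-207 end and the canonical end are shown because all 3 carry AATAAA (chr15:87926657-87926686, chr15:87979056-87979085 and chr15:87859751-87859780, minus strand).
NTRK3, end of NTRK3-209: acaaaaAATAAAaagatcacatccccaatt
NTRK3, end of NTRK3-207: agagccAATAAAgagaattaaaaacctgtg
NTRK3, end of the canonical transcript: tctcttctcaAATAAAgtataaaacaacaa

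The intronic peaks of NTRK3 lay in 6 of 19 introns. Their number rose with intron length (Spearman's rho 0.80, against 0.90 in ALK), and the longest intron without a peak was 9.77 kb long. The 2 longest introns were unevenly filled. Intron 14 held 16 peaks in 92.1 kb, or 17.4 per 100 kb, while intron 13, of nearly the same length at 93.2 kb, held 5, or 5.36 per 100 kb. The tallest intronic peak held 22 reads at chr15:87964375-87964570. Next came 3 peaks of 17 reads, at chr15:88002187-88002296 with 21 A of 25 bases downstream, at chr15:87990523-87990988 and at chr15:88250783-88250892. The last of these lay in intron 3, with AATAAA starting 21 bases before the edge, and the others and the tallest lay in intron 14, between the exons for the transmembrane part and those for the kinase. The 7 full windows of 50 kb from the start of the gene held 2 to 10 intronic peaks with a median of 4. The stretch after them was not counted in a window. Of the 35 peaks, 30 (85.7%) lay before the catalytic loop exon, on 86.8% of the intronic bases, so as in ALK the split followed intron length.

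NGFR, at chr17:49495293-49515008 on the plus strand, is 19.72 kb long and had 7 peaks: 5 intronic, 1 at the canonical end and 1 past the 3′ end. The end peak, at chr17:49514896-49515031, was the tallest of all the 5 genes with 44 reads, and had AAGAAA 30 bases before the edge. NGFR-AS1 is annotated on the opposite strand there, and reads of the genes could not be told apart. The peak past the end held 14 reads at chr17:49515878-49515995, 0.954 kb from the gene and also within NGFR-AS1. All 5 intronic peaks lay in intron 1, within 5 kb of the start of the gene and after exons encoding 22 of 427 residues. They held 33, 33, 22, 22 and 19 reads. The local background around them was high, at 374 to 386 reads per 10 kb, against a median of 78 at ALK, and the fold enrichment of the tallest was 7.173. None of the 5 had an A-rich stretch downstream, and 2 had a hexamer, at 63 and 71 bases before the edge.

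Because the genes differ in length, from 19.72 kb to 728.8 kb, intronic peaks were counted per 100 kb of intron and set beside other detected genes of 0.5 to 2 times the length. ALK held 16.2 peaks per 100 kb, against a median of 5.33 in 415 such genes, and 96.9% of these had a lower density. Counted as peaks, its 117 stood against a median of 28 (quartiles 12 and 47). NTRK3 held 9.45 per 100 kb against a median of 6.89 in 1032 genes (69.6% lower), and NTRK2, of similar length, held 0.254 against 6.73 in 925 genes (2.16% lower). RET held 6.77 against 11.3 in 4925 genes (25.7% lower). NGFR held 32.1 against 11.9 in 4589 genes (94.3% lower), a value that rests on 5 peaks in 1 intron. The place of ALK held for every kind of peak counted: 95.4% to 98.1% of genes of similar length had a lower density with all peaks, with peaks that had a hexamer, with peaks without A-rich sequence downstream, with both conditions, and with −log10 q of at least 20. In that last set ALK had 8 intronic peaks, RET and NTRK3 had 1 each, and NTRK2 and NGFR had none.

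**Figure D3:**
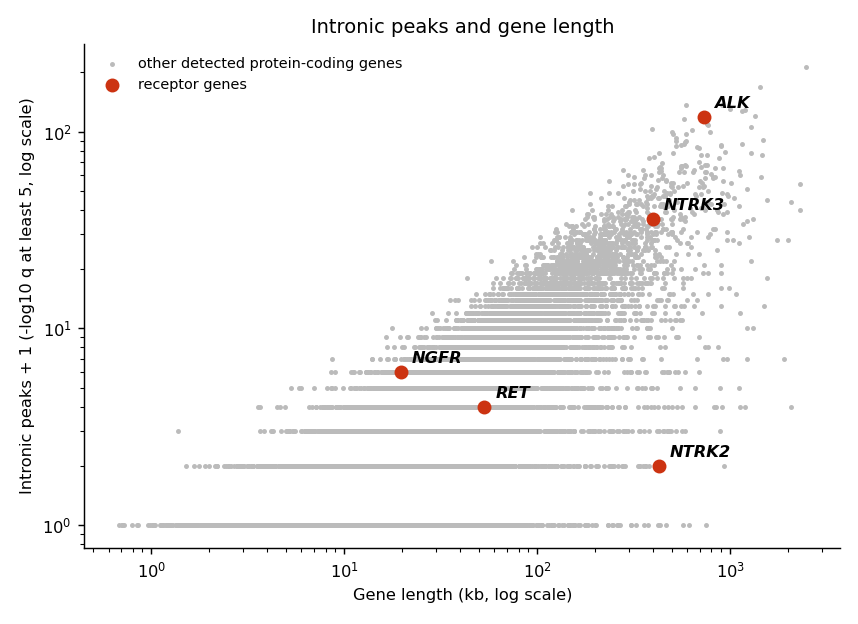
Intronic peaks plus 1 (log y axis) against gene length (kb, log x axis) for 12541 detected protein-coding genes with an intron. The receptor genes are in red: ALK, with 117 intronic peaks, lies near the upper edge of genes of its length and NTRK2, with 1, near the lower edge.

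The peaks around ALK were dense on its downstream side and sparse upstream. In the 500 kb upstream of ALK there were 8 peaks that met the cutoff, and in the 500 kb downstream there were 65. The corresponding numbers were 37 and 40 at RET, 54 and 56 at NGFR, 34 and 0 at NTRK3, and 0 and 10 at NTRK2. NTRK2 and the downstream side of NTRK3 thus lay in stretches with few or no peaks above the cutoff. Of all peaks of the list, the first outside the limit of 4 kb lay 9.02 kb past ALK (18 reads), 4.74 kb past RET (19 reads) and 438 kb past NTRK2 (8 reads). At NTRK3 and NGFR it was a peak below the cutoff, 11.9 kb (6 reads, −log10 q 4.76) and 14.3 kb (5 reads, −log10 q 3.59) past the gene.

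Taking the 5 genes as a set, 161 of the 180 peaks were intronic, or 89.4% (95% Wilson interval 84.1 to 93.1). This share was set by ALK: without ALK it was 44 of 60, or 73.3% (61 to 82.9). Over all pairs of a protein-coding gene and a peak, it was 64%. Transcript ends held 12 of the 180, or 6.67%, and 10 of 60 without ALK, or 16.7% (9.31 to 28), against 20.2% of all pairs. Heights were compared only at intronic peaks with no gene on the opposite strand, 154 at the receptor genes and 69627 at other genes. The median was 12 reads in both (quartiles 9 and 17 against 9 and 16).

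To describe what sequence surrounded them, 12 hexamers were looked for in the last 100 bp before the 3′ edge. They were the canonical AATAAA, its most common variant ATTAAA, and rarer variants. These were AAGAAA, then AATACA, then AATAGA, then AATATA, then AATGAA, then ACTAAA, then AGTAAA, then CATAAA, then GATAAA, then TATAAA. Only the 154 intronic peaks with no gene on the opposite strand were used. One or more hexamers were found at 97 of these peaks, or 63.0% (55.1 to 70.2), against 57.5% of 69627 intronic peaks of other protein-coding genes, which lies inside the interval. AATAAA was present at 26.6% (20.3 to 34.1) against 26.9%. The share with a hexamer was 62.7% in ALK and 62.9% in NTRK3. On the opposite strand the window was the last 100 bp before the other edge of the same peak. It thus covered the same bases only at peaks 100 bp wide. It held a hexamer at 48.1% (40.3 to 55.9), against 35.9% at other genes, and AATAAA at 12.3% (8.04 to 18.5) against 9.05%. Of the peaks without AATAAA, 14 had AAGAAA as the hexamer closest to the usual distance, 7 had ATTAAA and 7 had AATGAA.

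Sequence rich in A just downstream of a peak can let the oligo(dT) primer bind inside a transcript. A run of 25 bases holding 18 A or more, in the 50 bp past the edge, was found at 39 of 154 peaks, or 25.3% (19.1 to 32.7), against 29.1% at other genes. It was found at 24.5% of ALK peaks and 31.4% of NTRK3 peaks. With at least 22 A, it was found at 4 of 154 peaks, or 2.60% (1.01 to 6.49), against 5.94%. A hexamer without an A-rich stretch was present at 77 of the 154 peaks (95% interval 42.2% to 57.8%), and neither feature at 38, or 24.7% (18.5 to 32). The corresponding shares at other genes were 47.4% and 23.5%. In both features the intronic peaks of the receptor genes therefore lay close to those of other genes, apart from the higher share of hexamers on the opposite strand.

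**Figure D4:**
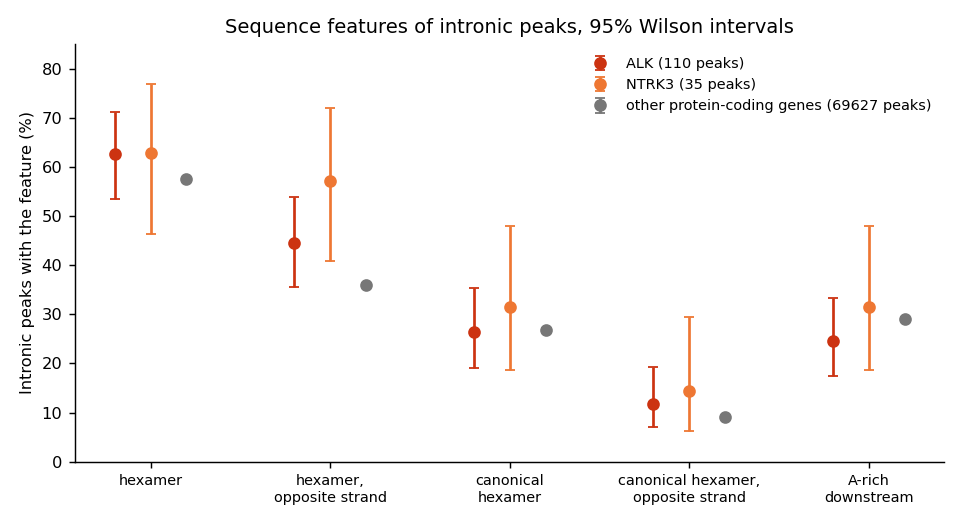
Share of intronic peaks (%, y axis) with each sequence feature (x axis) for ALK (110 peaks with no gene on the opposite strand), NTRK3 (35) and other protein-coding genes (69627), with 95% Wilson intervals. The canonical hexamer is AATAAA. The intervals of ALK and NTRK3 overlap in all 5 features, and that of NTRK3 lies above other genes for hexamers on the opposite strand.

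The gene bodies differed in base composition and in the motifs they hold on the sense strand. GC content was 41.1% in NTRK2, 43.5% in ALK, 45.3% in NTRK3, 55.7% in RET and 56.8% in NGFR, against a median of 44.9% over detected genes. AATAAA occurred 85.6 times per 100 kb in NTRK2, 76.8 in ALK, 62.0 in NTRK3 and 22.5 in RET, and not at all in NGFR, against a median of 69.1. Motifs like the 5′ splice site bound by U1 snRNP (GGTGAG, its variant GGTAAG, and also GTGAGT, of which the first and last can overlap) occurred 63.6 times per 100 kb in NTRK2, 74.1 in ALK, 88.7 in NTRK3, 101 in NGFR and 113 in RET, against a median of 75.9. The ratio of U1 motifs to AATAAA was 0.743 in NTRK2, 0.964 in ALK, 1.43 in NTRK3 and 5.0 in RET, with a median of 1.07 over detected genes. Among the genes with a ratio, NTRK2 had the lowest, and it also had the fewest intronic peaks per length. Its tallest transcript-end peak was low too, at 11 reads, above 7.29% of detected genes. ALK, with a ratio near the median, had more intronic peaks than most genes of its length. Whether the ratio and the number of peaks are related was not tested.

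Genes that act with these receptors were counted in the same list. Of 13 ligands, 5 had a transcript-end peak, and the tallest were MDK (midkine, 69 reads), PSPN (persephin, 25 reads) and PTN (pleiotrophin, 14 reads). NTF3, NTF4, GDNF, NRTN and ALKAL1 had no peak. Of 10 coreceptors and related receptors counted, 8 had a transcript-end peak. The tallest were at LINGO1, a partner of p75 (43 reads), GFRA2, the coreceptor for neurturin (41 reads), and SORT1, the gene of sortilin (39 reads), and GFRA4 and GFRAL had no peak. Among 29 adaptors and signalling genes, 25 had one, led by DOK4 (89 reads), BEX3 (62 reads) and ARHGDIA (54 reads), and DOK5 had no peak. The share with a transcript-end peak was 38.5% in ligands, 80.0% in coreceptors and 86.2% in adaptors, against 64.0% of all protein-coding genes. Among detected genes with an intron, the tallest intronic peak exceeded the tallest transcript-end peak at 2 of 4 ligands, 1 of 8 coreceptors and 8 of 25 adaptors, against 27.7% of all such genes. BDNF, SHC3, SOS2 and IRS2 had intronic peaks and no transcript-end peak.

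**Figure D5:**
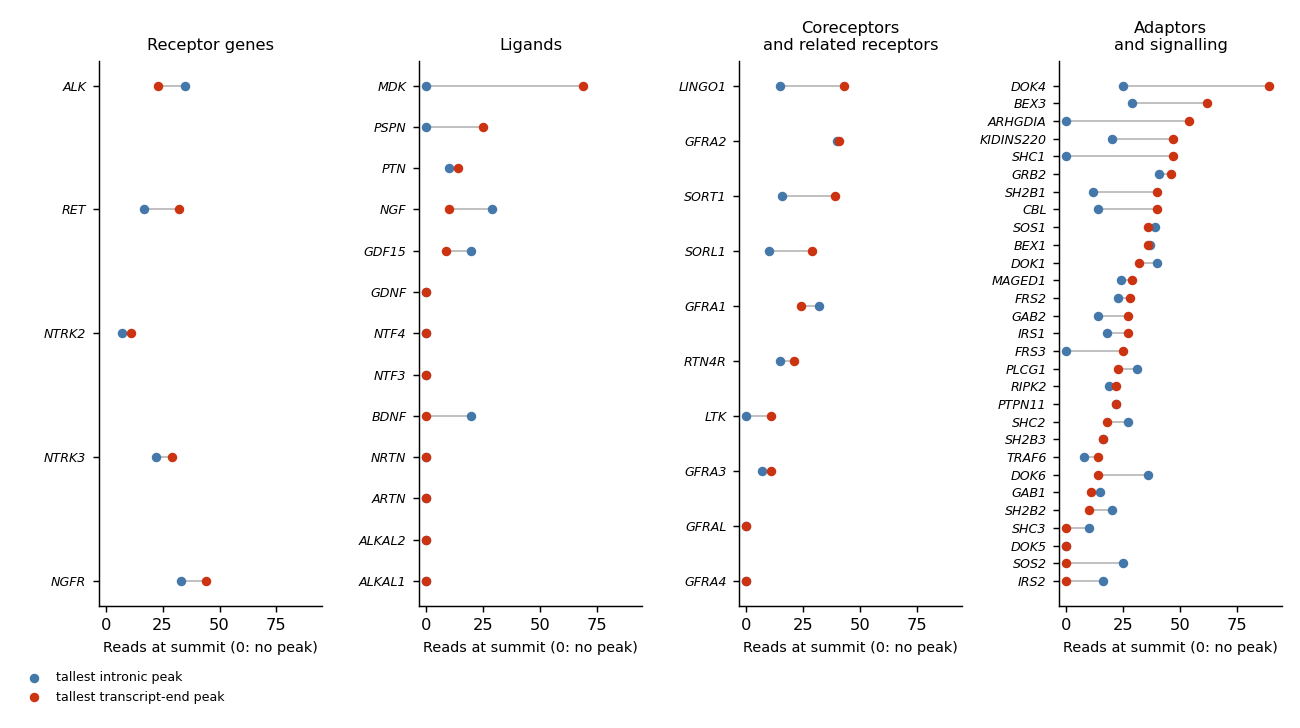
Tallest transcript-end peak (red) and tallest intronic peak (blue) of each receptor gene, ligand, coreceptor and adaptor (reads at the summit, x axis; 0 means no such peak). Among the receptor genes the blue point lies right of the red one for ALK (35 against 23 reads) and left of it for the other 4.

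In gene length, numbers of intronic and transcript-end peaks and height of the tallest end peak, each on a log2 scale in units of its SD, the nearest genes were found for each receptor over the 1 pooled list. They were FAF1 (distance 0.446) and SEMA6D (0.477) for ALK, STK11 (0.128) and MCM8 (0.187) for RET, PRICKLE2 (0.213) and CHODL (0.325) for NTRK2, AKAP13 (0.119) and DYM (0.148) for NTRK3, and STMN3 (0.0694) and ERH (0.0756) for NGFR. ALK was the most distant from its nearest gene: FAF1, 523.2 kb long, had 89 intronic peaks, 2 transcript-end peaks and 20 reads at the tallest of them.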

How the data were processed

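According to the methods, reads were trimmed by the authors with BBMap, mapped to GRCh38 with STAR 2.5.1b keeping up to 20 placements, merged, extended to 100 bp and passed to MACS2 2.1.1 without a control. The deposited list gives each peak a fold enrichment (pileup plus 1 over local background plus 1, a ratio) and the authors' −log10 p and −log10 q. It has no strand and no value per library, so the depth of each library is unknown. Strand-specific coverage files were not used here. Whether duplicate reads were kept is not given in the sources used here. The highest of the 200023 peaks held 200 reads, the most that distinct start positions on both strands allow for reads of 100 bp, so a height may count distinct positions rather than molecules.

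Reads at the summit and the local background (reads per 10 kb) were solved from fold and −log10 p with Python 3.11.15 and SciPy 1.17.1. On 20000 simulated peaks 100% were recovered, and the largest misfit of −log10 p in the real list was 0.000172. The lowest background was 33.72 reads per 10 kb.

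Genes came from GENCODE release 44, whereas the study used release 27. Each summit received 1 class per gene, in the order transcript end, exon, intron and downstream. The 3′ edge is the peak edge nearest the transcript's 3′ end. The catalytic loop was located by its conserved motif in the translated canonical transcript. Intervals are 95% Wilson intervals and cover counting error only. With 1 pooled list, no p-value is given.

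The 5 genes, the pathway lists and the marker lists were chosen with earlier results of these data known. Peaks named are, per gene, the tallest at the canonical end, the tallest at another end and the 3 tallest intronic ones. Pathway genes named are the 3 with the tallest transcript-end peak in each list and all with no peak. The further transcript-end, exon and downstream peaks, an ALK peak with the highest fold, a tied NTRK3 intronic peak, other pathway genes and markers, and the NTRK2 peaks below the cutoff, were added after their values were seen. NRADD matched no gene in the annotation. One further gene of the coreceptor list and one of the adrenergic list are not reported here. Other cutoffs on −log10 q, class rules, hexamer windows and A limits were tried as alternatives.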

Additional observations from a re-analysis of the deposited data

Results flagged for a closer look

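NTRK2 had peaks at annotated transcript ends that lay below the −log10 q cutoff, so they were among the 248 peaks of any height and not among the 180. The one at chr9:84815604-84815704, the end of the truncated TrkB transcripts, held 6 reads at the summit, and the one at chr9:85026958-85027059, the end of full-length TrkB, also held 6. They drew attention because the end of the canonical transcript is otherwise without a peak in this gene. Whether they come from DMSO or THZ531 libraries cannot be told from the pooled list.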

How the results depend on the processing

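No paired analysis was possible because the deposited file is 1 list called on merged libraries, and for the same reason no replicate could be left out. Over 12 results, 44 alternatives were run: 21 were labelled as keeping the value and 23 as moving it. Counts and densities were labelled as moved on a change by a factor of 1.5, so kept does not mean unchanged. For example, using all peaks gave 248 peaks at the receptor genes against 180. It gave 21.6 intronic peaks per 100 kb in ALK against 16.2, and both were labelled as kept. A −log10 q of at least 20 left 13 peaks at the receptor genes, moved the intronic share to 76.9% and the transcript-end share to 23.1%, and left 3 genes with a transcript-end peak. Under it the intronic peaks per 100 kb were 1.11 in ALK, 2.26 in RET, 0.27 in NTRK3 and 0 in NTRK2 and NGFR. Using all peaks moved the density to 13.5 in RET, 0.507 in NTRK2 and 14.6 in NTRK3. Counting only the canonical transcript gave an intronic share of 95%, a transcript-end share of 1.67% and 3 genes with a transcript-end peak. Intronic peaks with a hexamer gave 10.1 per 100 kb in ALK, 5.94 in NTRK3 and 12.8 in NGFR, and peaks without A-rich sequence gave 0 in NTRK2. The hexamer share was 26.6% with AATAAA alone and 39% in a window ending at the summit. The A-rich share was 2.6% with at least 22 A and 40.9% when 50 bp on either side were searched. These alternatives differ by construction in which peaks, ends or bases they count. ALK was the only gene with an intronic peak above its transcript-end peaks in every alternative run for that comparison.

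The 68 peaks below the cutoff held 4 to 16 reads, and 63 of them were intronic. A peak that is absent from the list was not called above its local background at the pooled depth, which is unknown per library. Its absence does not show that no reads lay there.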
